A study of Mus musculus with 81 samples.

Results

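The genes described here are 10 MHC class I genes of the mouse. They are 9 heavy chain genes (H2-K1, H2-D1, H2-Q4, H2-Q5, H2-Q6, H2-Q7, H2-T22, H2-T23 and H2-M3) and B2m, the gene of the light chain that all of them use. They were chosen by symbol, with earlier results of these data known, and make up 10 of the 54079 genes listed in every library. The measure is the number of uniquely mapped RNA-seq reads per gene. The study asked what loss of the histone variant H3.3 does to developing and mature macrophages, and deposited 81 libraries in 5 experiments. Of these, 79 could be placed in a group, and labels that contradict each other left 2 libraries of day 8 cells out of every comparison.

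WT cells were H3f3a fl/fl H3f3b fl/fl, with both H3.3 genes flanked by loxP sites. H3.3cKO (cKO) cells carried LysM cre/cre in addition, so that Cre was expressed from the Lyz2 gene, in cells of the myeloid lineage, and Lyz2 itself was disrupted in every cKO group. Mice were on a C57BL/6 background, 8 to 10 weeks old and of both sexes. Bone marrow was grown into bone marrow-derived macrophages (BMDMs) in medium conditioned by L929 cells, which supply the growth factor M-CSF. The time course had 3 WT and 3 cKO libraries on each of days 3, 5 and 7, of which the cells of days 3 and 5 are labelled progenitors. Day 8 BMDMs had 3 WT libraries without and 3 with 12 h of IFNγ, and 2 cKO libraries without and 2 with it. The antibody experiment had 3 libraries of each genotype with no antibody, with an IgG1 kappa isotype control or with the IFNAR1-blocking antibody MAR1-5A3, given from day 0 to day 6. The last BMDM experiment had 3 sets of 3 WT and 3 cKO libraries (sets 1, 2 and 3), and 3 libraries each of H3.3cKO:StingKO, H3.3cKO:MavsKO and H3.3cKO:Irf7KO, in which the named second gene is knocked out as well. The LysM cre allele of all cKO groups and the second knockouts came from lines with 129 ancestry. The sequence of the H2 region was not examined in any group. Peritoneal macrophages, taken from the mouse without culture, had 3 libraries per genotype and another library kit, so their levels are set beside those of BMDMs without a test. Replicates are called biological in the labels, which do not name the animals.

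Class I molecules hold peptides made inside the cell on its surface, where T cells and natural killer cells inspect them. A heavy chain folds around its peptide together with β2-microglobulin, the product of B2m, and few class I molecules reach the surface without it. H2-K and H2-D are the classical molecules, present on nearly every cell and highly variable between strains. The genes of the Q, T and M regions lie further along the same stretch of chromosome and are called non-classical: their products vary little, have narrower roles and are often restricted to certain tissues. Both interferon types raise class I transcription, in part through the factors IRF1 and NLRC5, the second of which acts on class I promoters.

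The heavy chain genes lie on chromosome 17 and B2m on chromosome 2 (GRCm38). H2-K1 spans 33996017 to 34000347 on the minus strand and stands apart from the rest. H2-D1 (35262730 to 35267499), H2-Q4 (35379617 to 35385290), H2-Q5 (35394126 to 35397800), H2-Q6 (35424850 to 35430055) and H2-Q7 (35439155 to 35443773) follow each other on the plus strand. Next come H2-T23 (36029773 to 36032855) and H2-T22 (36037128 to 36042747) on the minus strand, and H2-M3 (37270220 to 37274484) on the plus strand. B2m spans 122147686 to 122153083 of chromosome 2, plus strand. H2-Q5 is annotated as a polymorphic pseudogene and the others as protein coding. The genes resemble each other in sequence, which limits what a uniquely mapped read can tell. Of all stretches of 50 bases in the mature transcripts, 53.5% of those of H2-T22 also occurred in another gene, most often H2-T10. The share was 36.4% for H2-Q4, 36.4% for H2-Q5, 35.0% for H2-Q6 and 26.5% for H2-Q7, against 14.5% for H2-T23, 12.8% for H2-D1, 9.63% for H2-K1, 0.576% for H2-M3 and 0% for B2m. The levels of the Q region genes and of H2-T22 are therefore uncertain, since reads from shared stretches were not counted. H2-Q4 also overlapped an antisense gene, Gm11131, over 496 exonic bases, and H2-T22 overlapped A930015D03Rik over 1003, and counts made without strand cannot tell these apart. The shares above compare both strands and so include such overlap. Of the stretches of H2-Q4, 15.3% were shared with Gm11131. For stretches of 75 bases, H2-T22 shared 25.2% with A930015D03Rik.

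The promoters are shown because the classical and Q region genes, whose fold changes differ below, carry closely similar sequence there, and the T and M region genes and B2m do not. Each line gives 60 bases (RefSeq, GRCm38.p6), 5′ to 3′ on the strand of the gene, with matches to 2 motifs in capitals. The first motif resembles the element bound by interferon-activated factors and was searched as GAA or GAAA followed by any 2 bases and GAAA. The second, GGG followed by any 2 bases and TTCCC, resembles the element bound by NF-κB. Both strands were searched, so the first motif mostly shows here as TTTC, 2 bases and TTC. H2-Q5 had no entry in the promoter table used. The windows were placed by the RefSeq start of each gene, whereas the spans above are those of GENCODE. The 2 annotations place the starts of H2-D1 and H2-T23 differently, so that the H2-D1 window lies inside the GENCODE span of the gene and the H2-T23 window almost wholly so.
H2-K1, chr17:34000410-34000469, minus strand: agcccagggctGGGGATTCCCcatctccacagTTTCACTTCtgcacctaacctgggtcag
H2-D1, chr17:35262912-35262971, plus strand: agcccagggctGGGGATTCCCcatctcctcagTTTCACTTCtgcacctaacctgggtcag
H2-Q4, chr17:35379432-35379491, plus strand: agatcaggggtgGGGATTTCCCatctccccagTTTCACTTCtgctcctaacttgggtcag
H2-Q6, chr17:35424666-35424725, plus strand: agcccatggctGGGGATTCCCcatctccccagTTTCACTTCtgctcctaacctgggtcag
H2-Q7, chr17:35439010-35439069, plus strand: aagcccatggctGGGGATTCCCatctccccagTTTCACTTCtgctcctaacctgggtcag
H2-T22, chr17:36042906-36042965, minus strand: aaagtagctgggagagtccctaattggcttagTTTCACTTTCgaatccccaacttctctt
H2-T23, chr17:36032798-36032857, minus strand: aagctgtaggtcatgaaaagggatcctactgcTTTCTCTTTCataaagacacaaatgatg
H2-M3, chr17:37270101-37270160, plus strand: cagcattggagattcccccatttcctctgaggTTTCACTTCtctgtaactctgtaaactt
B2m, chr2:122147516-122147575, plus strand: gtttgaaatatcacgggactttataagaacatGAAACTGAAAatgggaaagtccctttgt

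All 9 promoters held the first motif, which 10.4% of 32851 promoters of 300 bases held (250 bases before to 50 after the start). The second was in 5 of them, those of H2-K1, H2-D1, H2-Q4, H2-Q6 and H2-Q7, and in 1.75% of all promoters. Both together were in 0.195%. Aligned on the first motif without gaps, those 5 promoters matched each other at 47 to 59 of 60 bases in 10 pairs, and the other 26 pairs matched at 9 to 27. TGATGAC, which resembles part of the element through which the NLRC5 complex acts, was in 6 of the 9 (not in H2-K1, H2-T23 or B2m) and in 3.23% of all, and CCAAT was in all 9 and in 37.4% of all. A match describes the letters only.

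A library of the time course held 14419697 to 20220329 counts on genes, one of day 8 cells 3614967 to 9879339, one of peritoneal cells 7625225 to 23381318, one with or without antibody 5295144 to 34380735, and one of the sets or double knockouts 21504555 to 45581528. Levels are given as counts per 1e+06 counts (CPM), scaled by TMM, or per kilobase of exon as RPKM where genes are compared with each other. The targeted H3f3a was at 54.9 ± 5.24 CPM in WT and 15 ± 0.458 in cKO cells of day 3 (mean ± SD, n = 3), and at 55.6 ± 12.6 and 8.52 ± 1.61 on day 7. H3f3b stood at 234 ± 13.8 and 202 ± 24.4 CPM on day 3. In the antibody experiment its means were 306 to 376 CPM in WT and 35.2 to 49.8 in cKO groups, and in the other experiments 218 to 438 and 168 to 329, so that the H3f3b counts left in cKO cells differed widely between experiments. The study reports that deletion of H3f3b appeared variable, complete in some cKO samples and partial in others. Why the counts differed between experiments was not tested here. Lyz2 was at 10673 ± 2299 CPM in WT and 12.0 ± 6.58 in cKO cells of day 3. All 6 macrophage markers examined were detected in every group. In cKO day 8 IFNγ replicate 1 (3614967 counts, the fewest of any library) B2m was at 191 CPM before scaling against 3724 in replicate 2, the lowest ratio of 547 genes, and the macrophage marker Cd68, at 51.2 against 853, was next. In replicate 1, 57.1% of reads were unmapped. Its TMM factor was 0.460, against 0.891 in replicate 2, which raises its scaled CPM. Values without replicate 1 stand beside the IFNγ results of cKO cells.

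Each of the 10 members was higher in cKO than in WT cells on day 3, and the genes of the Q region had larger fold changes than the classical ones. All 10 passed edgeR's quasi-likelihood test at an adjusted p (Benjamini-Hochberg, over all genes tested) below 0.05, where 5.19% of the 15955 genes tested were higher in cKO cells and 7.73% changed in either direction. The 2 groups of libraries did not overlap for any of the 10, as for 18.3% of genes in this direction. The median log2 fold change of the members was 2.60, against 0.04 over all genes. As in any bulk sample, a change in the share of cells of a type and a change in RNA per cell cannot be told apart.

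H2-K1, a classical gene, had 328, 208 and 246 CPM in the WT and 1530.4, 1215 and 1214 in the cKO libraries of day 3. All 3 cKO libraries lay far above the WT range, with a log2 fold change of 2.34 ± 0.30 (SE, adjusted p = 0.000315), or 5.06-fold. H2-D1, the other classical gene, had 754, 526 and 591 CPM in WT and 2504, 1995 and 2103 in cKO cells, 3.53-fold apart (1.82 ± 0.30, adjusted p = 0.00151).

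In the Q region, H2-Q4 went from 10.2, 6.80 and 5.33 CPM in WT to 101, 67.8 and 74.3 in cKO cells, a log2 difference of 3.45 ± 0.40 (adjusted p = 0.000157). H2-Q6 and H2-Q7 belong to the genes of the Qa-2 antigen, which can be held in the membrane by a lipid anchor. H2-Q6 had 1.16, 0.411 and 0.842 CPM in WT and 129, 63.8 and 80.0 in cKO cells, 114-fold apart (6.83 ± 0.78, adjusted p = 0.000144). H2-Q7 had 0.818, 0.528 and 0.618 against 95, 48.2 and 62.7 CPM, 105-fold apart (6.71 ± 0.73, adjusted p = 9.5e-05). Both were close to silent in WT progenitors, with 7 to 17 counts per library for H2-Q6 and 9 to 12 for H2-Q7, and the cKO level was set by replicate 1 at the top and replicate 2 at the bottom. H2-Q5 had 0.750, 0.293 and 0.505 CPM in WT and 27.3, 19 and 18.7 in cKO cells, 42.0-fold apart (5.39 ± 0.51, adjusted p = 3.57e-05), on 5 to 11 counts in a WT library. With so few WT counts, the size of these 3 fold changes is imprecise.

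H2-T23 encodes Qa-1, which shows a peptide taken from the leader of other class I molecules to inhibitory receptors of natural killer cells. It had 30.5, 29.2 and 33.6 CPM in WT and 244, 195 and 192 in cKO cells of day 3, 6.78-fold apart (log2 2.76 ± 0.44, adjusted p = 0.00121). H2-T22, whose product is recognised by some γδ T cells, had 20.6, 17.5 and 16.5 against 117, 77.5 and 99.9 CPM (2.44 ± 0.48, adjusted p = 0.00519). H2-M3, which presents peptides that start with formyl-methionine, as bacterial and mitochondrial ones do, changed least, from 14.5, 14 and 9.60 to 35.8, 33.5 and 30.5 CPM (1.39 ± 0.20, adjusted p = 0.000686). B2m had 533, 286 and 339 CPM in WT and 1405, 1088 and 1618 in cKO cells, 3.55-fold apart (1.83 ± 0.35, adjusted p = 0.00417). The light chain thus moved by about as much as H2-D1.

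Per kilobase of exon the order of the genes in WT day 3 cells ran from B2m (449 ± 151 RPKM) over H2-D1 (242 ± 45.5) and H2-K1 (88.8 ± 20.8) to H2-T23 (10.8 ± 0.787), H2-M3 (8.84 ± 1.88), H2-T22 (5.32 ± 0.631) and H2-Q4 (2.86 ± 0.952). H2-Q6 (0.386 ± 0.180), H2-Q5 (0.324 ± 0.144) and H2-Q7 (0.153 ± 0.0348) came last, and H2-Q6 and H2-Q5, like H2-T23 and H2-M3, did not differ beyond their spread. In cKO cells the first 4 places were the same, and H2-Q6 (43.7 ± 16.4 RPKM) came next, within its spread of H2-Q4 (31.2 ± 6.68) and H2-T22 (28.8 ± 5.87). These 3 genes then stood at or above the level of H2-M3 (23.1 ± 1.85), which ranked above all Q region genes in WT cells.

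On day 3 the marker sums of B cells, of dendritic cells, and of mast cells and basophils were higher in every cKO than in every WT library. The sums of the other lists overlapped. The 8 neutrophil markers summed to 1583 to 3038 CPM in WT and 2732 to 4205 in cKO libraries, the 4 B cell markers to 9.77 to 10.7 and 22.4 to 44.4, the 5 dendritic cell markers to 2.80 to 7.16 and 9.93 to 12.9, and the 3 mast cell and basophil markers to 0.682 to 1.63 and 4.99 to 6.54. The 4 stromal markers gave 8.52 to 45.7 and 26.3 to 70.3 CPM and the 3 erythroid ones 0.0682 to 2.30 and 0.629 to 2.81. The 5 T and NK cell markers summed to 0.352 to 0.409 and 0.105 to 0.566 CPM, with Ncr1 at 0, and the 6 macrophage markers gave 2823 to 4302 and 2854 to 3466 CPM. The part of these cells in the class I difference was not tested.

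**Figure D1:**
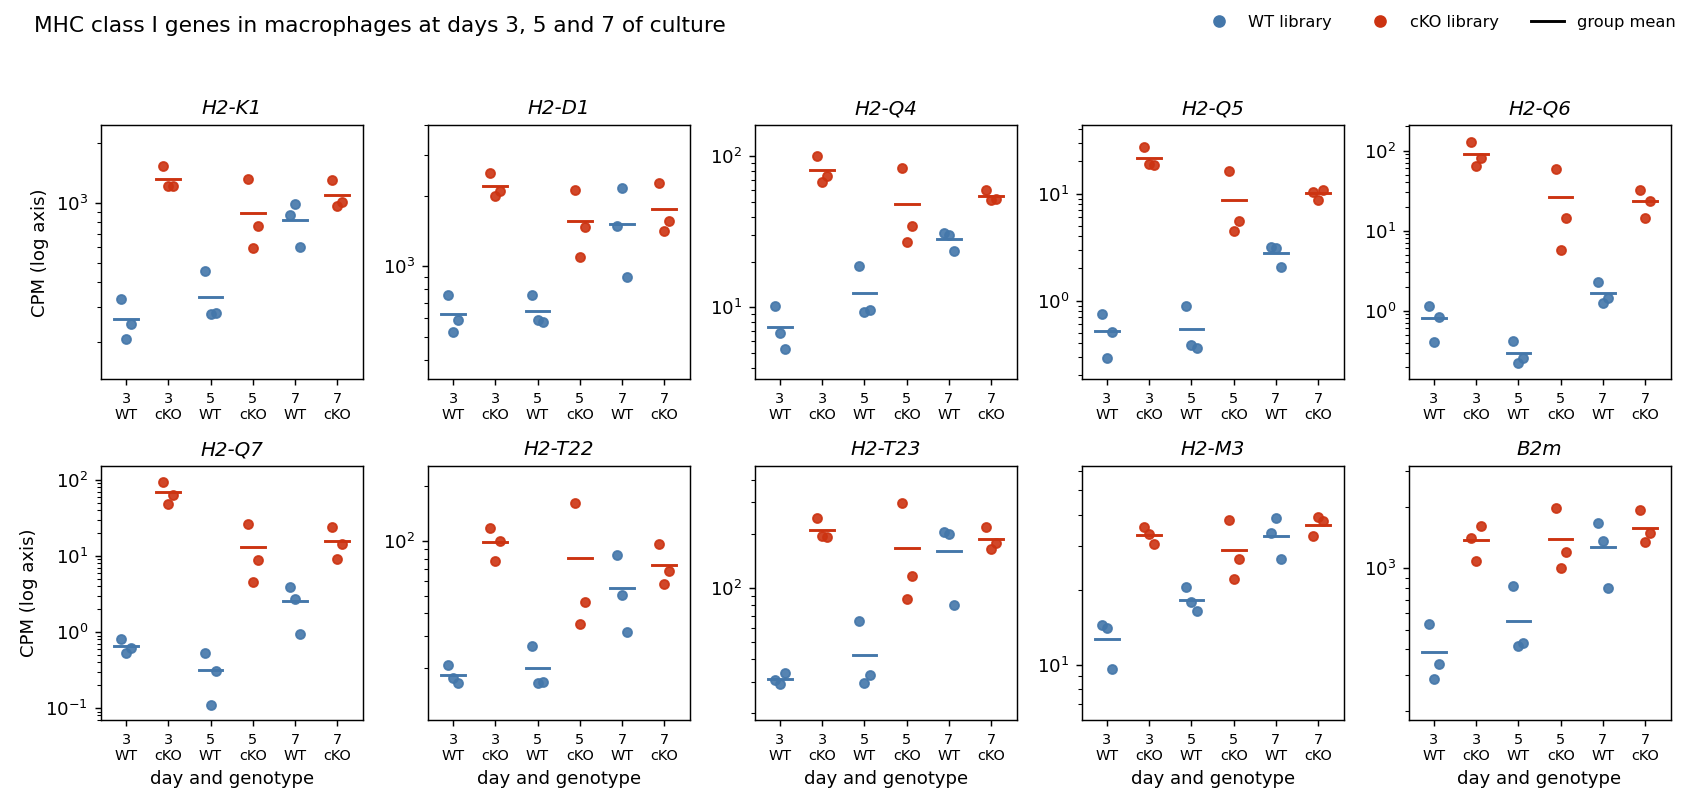
CPM on a log axis for each of the 10 class I genes on days 3, 5 and 7 of BMDM culture, with 1 point per WT and cKO library and lines through the group means. The cKO libraries lie above all WT libraries for every gene on day 3, and on day 7 they do so only for H2-Q4, H2-Q5, H2-Q6 and H2-Q7.

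On day 5 the difference was smaller for every gene, and largest again in the Q region. Of the 10 members 9 were higher in cKO cells, where 2.2% of all genes were higher and 2.83% changed in either direction, and all 10 had groups that did not overlap (15.4% of genes in this direction). H2-Q6 had 0.418, 0.221 and 0.258 CPM in WT and 58.5, 5.74 and 14.5 in cKO cells, 86.4-fold apart (log2 6.43 ± 0.84). H2-K1 had 454, 278 and 279.9 against 1316, 595 and 765 CPM (1.40 ± 0.29), and B2m 818, 414 and 431 against 1987, 999.7 and 1201 (1.33 ± 0.34, adjusted p = 0.0475). H2-Q7 (5.36 ± 0.77), H2-Q5 (4.01 ± 0.50), H2-T22 (2.02 ± 0.47), H2-T23 (1.98 ± 0.43), H2-Q4 (1.95 ± 0.37) and H2-D1 (1.28 ± 0.29) passed as well. H2-M3 was the one that did not (0.66 ± 0.20, adjusted p = 0.0986). Replicate 1 was the highest cKO library for every gene, and without it 3 members passed: H2-Q6, whose log2 difference was then 5.06, H2-Q7 (4.39) and H2-Q5 (3.21). Without WT replicate 2 or WT replicate 3, 3 members passed as well. Of the 8 marker lists 3 had higher sums in every cKO than in every WT library of that day. Stromal markers gave 13.1 to 42.3 CPM in WT and 67.5 to 95.3 in cKO libraries, dendritic cell markers 2.45 to 4.25 and 4.66 to 10.07, and mast cell and basophil markers 0.0552 to 0.155 and 0.574 to 1.42. The neutrophil marker sums, 486 to 585 and 504 to 1741 CPM, overlapped. The part of these cells was not tested.

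By day 7 only genes of the Q region still passed, 3 of the 10 members where 0.871% of all genes were higher and 1.4% changed in either direction. H2-Q6 had 2.29, 1.26 and 1.45 CPM in WT and 32.5, 14.3 and 23.4 in cKO cells (log2 3.79 ± 0.68, adjusted p = 0.0112), 13.8-fold apart. H2-Q7 had 3.91, 2.73 and 0.931 against 24.1, 9.14 and 14.4 CPM (2.66 ± 0.59, adjusted p = 0.0376). H2-Q5 had 3.18, 3.08 and 2.07 against 10.47, 8.79 and 10.9 CPM (1.86 ± 0.42, adjusted p = 0.0382). In all 3 genes the lowest cKO library exceeded the highest WT library (9.5% of genes in this direction). H2-Q4 did so too, with 30.9, 30.2 and 23.7 against 59.5, 51.3 and 52.0 CPM, but did not pass (0.94 ± 0.36, adjusted p = 0.197). The other 6 genes had log2 differences of 0.15 to 0.42. H2-K1, for example, had 874, 991 and 603 CPM in WT and 1296, 962 and 1010.5 in cKO cells, and the ranges overlapped. The Q region calls rested on few libraries: none passed without WT day 7 replicate 2, and 1 member passed in the fits without any one of 7 other libraries. Stromal markers gave 4.38 to 40.4 CPM in WT and 86.4 to 125 in cKO libraries of day 7, and the sums of the other 7 marker lists overlapped.

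The change of the difference between day 3 and day 7 was tested as an interaction. None of the 10 members passed edgeR's test, where 0.0439% of all genes passed; the log2 difference was lower on day 7 by 1.24 (H2-M3) to 4.05 (H2-Q7), all 10 had an unadjusted p below 0.05, and adjusted p-values were 0.0578 to 0.182. DESeq2 called 7 of them. Same-numbered WT and cKO libraries deviated together on days 3 and 7, and with the replicate number as a block all 10 passed (adjusted p = 0.00509 to 0.0499). The share of all genes passing is given for the main edgeR fit only, so the other counts cannot be set against it.

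One side of this was the rise of the genes in WT cells as they matured. Between day 3 and day 7, 8 of the 10 rose in WT cells, where 12.3% of all genes rose and 23.9% changed in either direction. H2-T23 rose from 30.5, 29.2 and 33.6 to 204, 201 and 79.7 CPM (log2 2.38 ± 0.43, 5.19-fold, adjusted p = 0.00171), with replicate 3 well below the other libraries of day 7. H2-K1 rose by 1.66 ± 0.29, B2m by 1.73 ± 0.35, H2-D1 by 1.28 ± 0.29, H2-Q4 by 1.93 ± 0.38, H2-Q5 by 2.43 ± 0.52, H2-T22 by 1.61 ± 0.47 and H2-M3 by 1.38 ± 0.20 on the log2 scale. H2-Q6 (1.08 ± 0.83, adjusted p = 0.352) and H2-Q7 (1.94 ± 0.75, adjusted p = 0.0703) did not pass, and they were the 2 genes that stayed lowest in WT cells. In cKO cells H2-K1 had a mean of 1319.9 ± 182 CPM on day 3 and 1089.6 ± 180.4 on day 7, and H2-Q6 91.1 ± 34.2 and 23.4 ± 9.12.

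In resting day 8 BMDMs 5 of the 10 members were higher in cKO cells (0.505% of all 13075 genes were higher, and 0.612% changed in either direction): H2-Q4, H2-Q5, H2-Q6, H2-Q7 and H2-T22. The libraries of the 2 genotypes did not overlap for any of the 10 genes (18% of genes in this direction). H2-Q6 had 2.08, 1.70 and 0.438 CPM in WT and 15.7 and 25.3 in cKO cells (log2 3.90 ± 0.44, adjusted p = 0.00348, 14.9-fold). H2-Q7 had 0.878, 1.38 and 1.23 against 8.52 and 16 CPM (3.37 ± 0.42, adjusted p = 0.0061). H2-Q4 had 26.4, 20.2 and 18.1 against 51.4 and 61.2 CPM (1.38 ± 0.25, adjusted p = 0.0438), and each cKO library was well above the highest WT library. H2-T22 had 37.6, 37.3 and 32.9 against 64.5 and 82.3 CPM (1.03 ± 0.16, adjusted p = 0.0145), and H2-Q5 was 4.82-fold apart (2.27 ± 0.34). H2-K1 had 624, 679 and 604 CPM in WT and 1060.0 and 1315 in cKO cells, a clear gap that did not pass (0.90 ± 0.23, adjusted p = 0.187). H2-D1 (0.83 ± 0.18, adjusted p = 0.0863), H2-T23 (0.97 ± 0.26), H2-M3 (0.71 ± 0.29) and B2m (0.66 ± 0.62) did not pass either. The spread was estimated over all 4 groups of the experiment, and without the low cKO IFNγ library named above 9 of the 10 passed, all but H2-M3, with both classical genes among them (adjusted p = 0.003 for H2-K1 and 0.00736 for H2-D1). The count also fell to 0 without cKO untreated replicate 2, to 1 or 2 without WT untreated replicate 3 or 2 or cKO untreated replicate 1, to 3 without WT untreated replicate 1, and rose to 10 without cKO IFNγ replicate 2. The T and NK cell markers summed to 0.110 to 0.531 CPM in WT and 0.0812 to 0.0978 in cKO libraries, with most of them at 0, and the sums of the other 7 marker lists overlapped or were 0.

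IFNγ raised all 10 members in WT cells, where 20% of all genes rose and 40.1% changed in either direction. H2-Q6 rose most, from 2.08, 1.70 and 0.438 to 18.1, 11.3 and 14.1 CPM (log2 3.41 ± 0.42, 10.6-fold). H2-T23 rose from 81.8, 117 and 82.1 to 738, 1002 and 943 CPM (3.26 ± 0.26, 9.57-fold). Both genes had every treated library above every untreated one. H2-T22 (2.5 ± 0.15), H2-Q7 (2.47 ± 0.42), H2-Q4 (2.43 ± 0.24) and H2-Q5 (2.40 ± 0.32) followed. The classical genes rose less, H2-K1 by 1.95 ± 0.22, from 624, 679 and 604 to 2196, 2578 and 2589 CPM, and H2-D1 by 1.53 ± 0.16. B2m rose from 1009, 1076 and 969 to 3251, 3459 and 3233 CPM (1.70 ± 0.58), and H2-M3 by 1.27 ± 0.26.

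In cKO cells 9 of the 10 rose with IFNγ (17.2% of all genes rose and 33.6% changed). H2-Q6 went from 15.7 and 25.3 to 255 and 172 CPM (log2 3.37 ± 0.41) and H2-T23 from 169 and 197 to 2169 and 1225 CPM (3.21 ± 0.32). Before scaling, the treated libraries had 994 and 1089 CPM of H2-T23. H2-Q7 (3.18 ± 0.40), H2-Q4 (2.97 ± 0.30), H2-T22 (2.78 ± 0.18), H2-Q5 (2.26 ± 0.33), H2-K1 (2.01 ± 0.26), H2-M3 (1.81 ± 0.32) and H2-D1 (1.27 ± 0.20) rose as well. B2m did not pass, with 1572 and 1637 CPM untreated and 418 and 4186 with IFNγ, so that the treated libraries lay on both sides of the untreated ones. Without the low library, replicate 1, all 10 passed and B2m rose by 1.41 on the log2 scale (adjusted p = 1.12e-05). The rise was then 3.10 for H2-Q6, 2.91 for H2-T22, 2.77 for H2-T23, 2.60 for H2-Q7, 2.49 for H2-Q4, 1.93 for H2-Q5, 1.59 for H2-K1, 1.26 for H2-D1 and 1.19 for H2-M3. No member passed the test of the difference between genotypes in the IFNγ effect, in edgeR or DESeq2, and none had an unadjusted p below 0.05 (0% of all genes passed; log2 differences −1.18 to 0.72, and −0.47 to 0.42 without the low library). The cKO groups had 2 libraries each. Without cKO IFNγ replicate 2, 3 members passed it.

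Under IFNγ 7 of the 10 were higher in cKO than in WT cells (3.2% of all genes were higher and 4.83% changed). H2-Q7 had 8.04, 5.21 and 6.14 CPM in WT and 154 and 72.7 in cKO cells, 17-fold apart (log2 4.09 ± 0.36, adjusted p = 0.00067). Before scaling it had 4.96 to 7.88 CPM in WT and 64.6 to 70.5 in cKO libraries. The wide gap between the 2 cKO libraries thus appeared only after scaling. H2-Q6 had 18.1, 11.3 and 14.1 against 255 and 172 CPM, 14.5-fold apart (3.86 ± 0.37). For comparison, untreated cKO cells had 20.5 ± 6.77 CPM of H2-Q6, in a range that overlapped that of treated WT cells (14.5 ± 3.42), whereas H2-K1 was at 1187 ± 180.1 CPM in untreated cKO and 2454 ± 224 in treated WT cells, without overlap. H2-Q4 (1.93 ± 0.25), H2-Q5 (2.13 ± 0.30), H2-T22 (1.31 ± 0.15), H2-M3 (1.24 ± 0.29) and H2-K1 (0.96 ± 0.23) also passed, and H2-D1 (0.56 ± 0.18) and H2-T23 (0.92 ± 0.26) did not. B2m was at −0.52 ± 0.64, and at 0.36 (adjusted p = 0.096) without the low library. In that fit 5 members passed: H2-Q6 (3.58), H2-Q7 (3.50), H2-Q5 (1.80), H2-Q4 (1.44) and H2-T22 (1.43). H2-M3 (0.63, adjusted p = 0.063) and H2-K1 (0.54, adjusted p = 0.0505) no longer did, and H2-D1 was at 0.55 and H2-T23 at 0.48. Stromal markers gave 8.15 to 48.8 CPM in WT and 53.1 to 340 in cKO libraries with IFNγ, B cell markers 0.446 to 0.965 and 1.18 to 1.81, and dendritic cell markers, lower in cKO cells, 6.11 to 8.04 and 3.62 to 5.42. Their part was not tested.

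**Figure D2:**
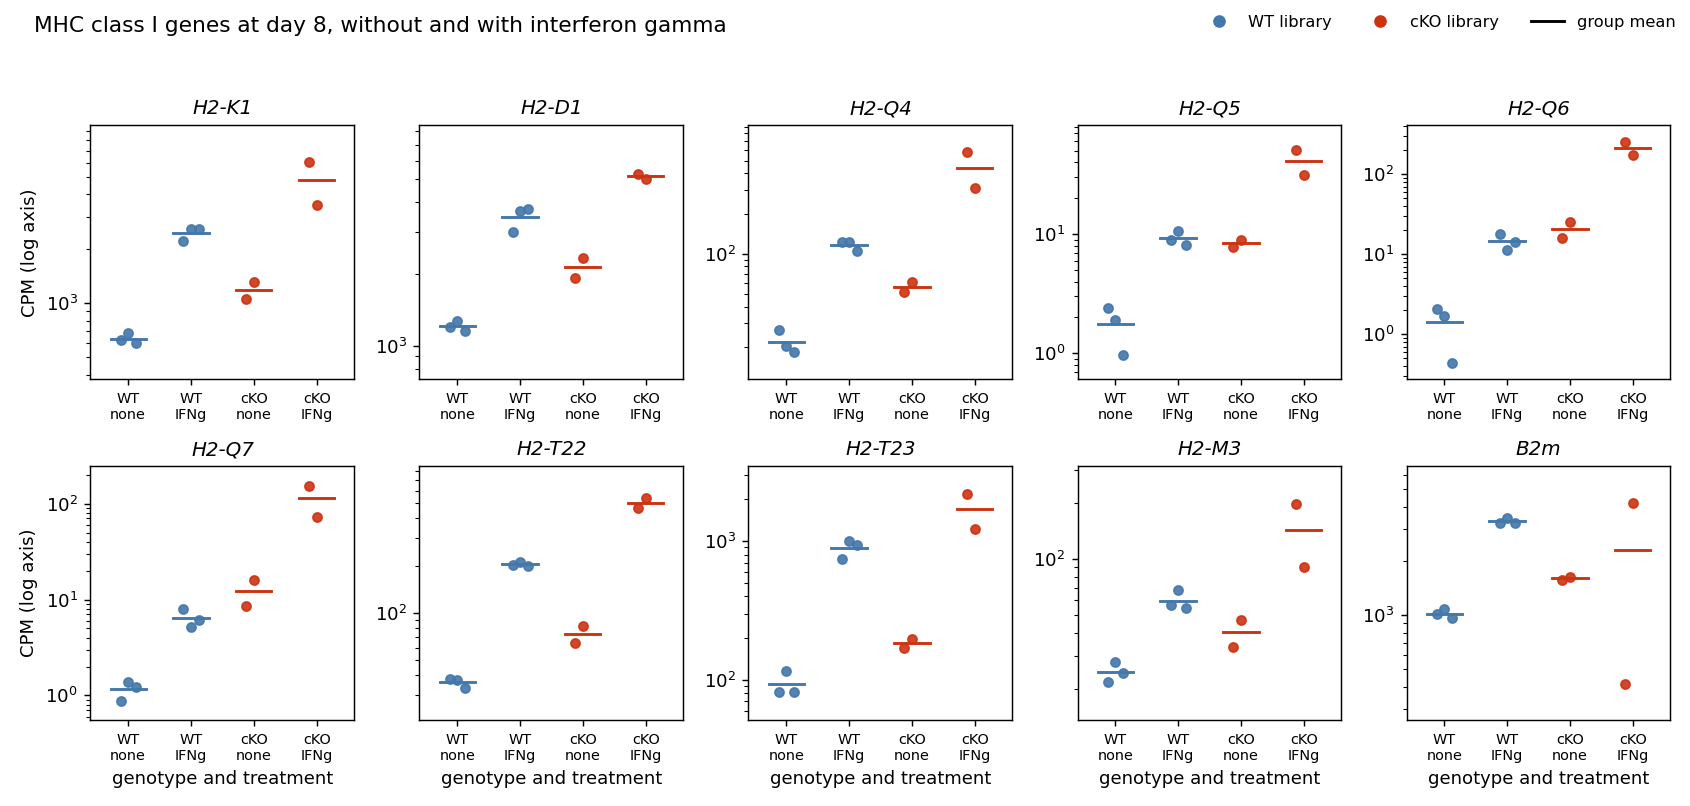
CPM on a log axis of the 10 class I genes in day 8 BMDMs without and with IFNγ, with 1 point per library (3 per WT group, 2 per cKO group). Treated libraries lie above untreated ones of the same genotype for every gene except B2m, where cKO IFNγ replicate 1 fell to 418 CPM, and H2-Q6 and H2-Q7 differ between treated WT and treated cKO libraries by 14.5-fold and 17-fold with both cKO libraries, and by 3.58 and 3.50 on the log2 scale without replicate 1.

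In peritoneal macrophages no class I gene passed the test between genotypes, and the largest differences were again in the Q region (0.591% of all 12361 genes were higher and 0.971% changed in edgeR, 4 members had an unadjusted p below 0.05, and DESeq2 called 1). H2-Q5 came nearest, with 8.77, 9.79 and 11.1 CPM in WT and 22.1, 13.8 and 23.4 in cKO cells (log2 0.99 ± 0.24, adjusted p = 0.155). H2-Q7 had 35.0, 42.2 and 34.9 against 96.9, 44.3 and 67.5 CPM (0.90 ± 0.27, adjusted p = 0.27). In both, all cKO libraries lay above all WT libraries, as they did for H2-Q4 and H2-T23 (8.47% of genes in this direction), and replicate 2 was the lowest cKO library. H2-Q6 had 71.8, 52.9 and 42.8 against 138, 54.3 and 98.9 CPM, and these ranges overlapped. H2-K1 (0.31 ± 0.18), H2-D1 (0.14 ± 0.15), H2-M3 (−0.02 ± 0.17) and B2m (0.04 ± 0.22) stayed within 0.31 of no difference. The sums of all 8 marker lists overlapped between the genotypes.

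The levels of the WT tissue macrophages, on the other kit, were high for genes that were close to silent in WT BMDMs. H2-Q6 was at 55.8 ± 14.7 CPM and H2-Q7 at 37.3 ± 4.17 in WT peritoneal macrophages, where WT day 7 BMDMs had 1.67 ± 0.551 and 2.52 ± 1.5. H2-Q4 went the other way, with 4.17 ± 0.977 CPM in WT peritoneal macrophages and 28.3 ± 3.98 in WT day 7 BMDMs. H2-D1 reached 9959.8 ± 339.8 CPM, against 2101 ± 286 for H2-K1. Per kilobase H2-D1 (3862 ± 132 RPKM) stood above B2m (2511 ± 608), then came H2-K1 (715 ± 97.2), H2-T23 (180 ± 18), H2-M3 (53.4 ± 9.17) and H2-Q6 (26.8 ± 7.07). H2-T22 (9.90 ± 1.63) and H2-Q7 (8.75 ± 0.978) did not differ beyond their spread, and H2-Q5 (6.21 ± 0.726) and H2-Q4 (1.61 ± 0.377) came last. Kit, tissue and culture cannot be told apart in these levels.

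The antibody experiment asked whether blocking the receptor of type I interferons changes the genotype difference. Without antibody edgeR called no member between the genotypes (3.39% of all 17191 genes were higher and 7.1% changed, and 1 member had an unadjusted p below 0.05; DESeq2 called 0). H2-K1 had 386, 728 and 465 CPM in WT and 881, 606 and 513 in cKO cells. H2-Q6 had 0.310, 2.82 and 0.810 against 8.80, 2.24 and 0.771 CPM. In both the ranges overlapped, and WT replicate 2 and cKO replicate 1 were the highest of their groups. Log2 differences of the 10 ran from −0.17 (H2-Q4) to 1.59 (H2-Q6), and H2-T23 was at 0.89 ± 0.34 (adjusted p = 0.118). Dendritic cell markers summed to 1.76 to 2.38 CPM in WT and 1.17 to 1.61 in cKO libraries, and the other 7 lists overlapped or were at 0.

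With the control antibody 1 member passed, H2-T23, where 2.88% of all genes were higher and 4.45% changed. It had 33.7, 32.8 and 29.7 CPM in WT and 116, 117 and 81.9 in cKO cells (log2 1.71 ± 0.35, adjusted p = 0.0101). The cKO libraries lay above the WT libraries for 9 of the 10 genes (18.3% of genes in this direction). B2m had 333, 341 and 337 against 869, 847 and 667 CPM, and H2-K1 335, 347 and 344 against 569.5, 543 and 407. H2-Q6 was low in both genotypes, at 0.140, 0.113 and 0.275 CPM in WT and 1.67, 1.81 and 1.66 in cKO cells. The 3 WT libraries were close to each other here, and in a fit to these 2 groups alone, with the spread estimated from them, 8 members passed. The other 2, H2-Q5 and H2-Q7, were left out of that fit by the filter and not tested. No member passed without WT control replicate 2 or 3, and 2 did without cKO IFNAR1 replicate 1. Log2 differences of the 10 ran from 0.57 (H2-K1) to 3.299 (H2-Q6). Stromal markers gave 12.5 to 219 CPM in WT and 156 to 290 in cKO libraries with the control antibody, and these overlapped, as did the other lists.

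With the IFNAR1 antibody no member differed between genotypes (0.477% of all genes were higher and 0.675% changed in edgeR, no member had an unadjusted p below 0.05, and DESeq2 called 0). H2-T23 had 42.4, 72.1 and 29.3 CPM in WT and 114, 53.0 and 45.4 in cKO cells, and H2-Q6 1.15, 4.70 and 0.185 against 13.3, 0.393 and 0.286. Replicate 1 held the highest cKO value and replicate 2 the highest WT value for both genes, so the ranges crossed. Log2 differences of the 10 ran from 0.03 (H2-K1) to 1.29 (H2-Q7). Set against the control antibody, no member passed in cKO cells (4.03% of all genes changed, and 1 member had an unadjusted p below 0.05). Log2 differences there ran from −0.56 to 2.51, with a median of 0.37 and 7 of the 10 above 0. In WT cells none passed either (9.89% of all genes changed, 4 members had an unadjusted p below 0.05, and DESeq2 called 2). All 10 were above 0 in WT cells, from 0.25 to 4.16 with a median of 0.87. The difference between the genotypes in that effect was not called for any member or any gene (0%, with 1 member at an unadjusted p below 0.05). H2-T23, unlike most members, had a lower cKO mean with the IFNAR1 antibody. That mean was 105 ± 19.9 CPM with the control and 70.9 ± 37.8 with the IFNAR1 antibody, and the WT mean 32.1 ± 2.12 and 47.9 ± 21.9. The spread between libraries of 1 group was wide here for the Q region: cKO libraries with the IFNAR1 antibody had 87.7, 13.4 and 8.20 CPM of H2-Q4.

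**Figure D3:**
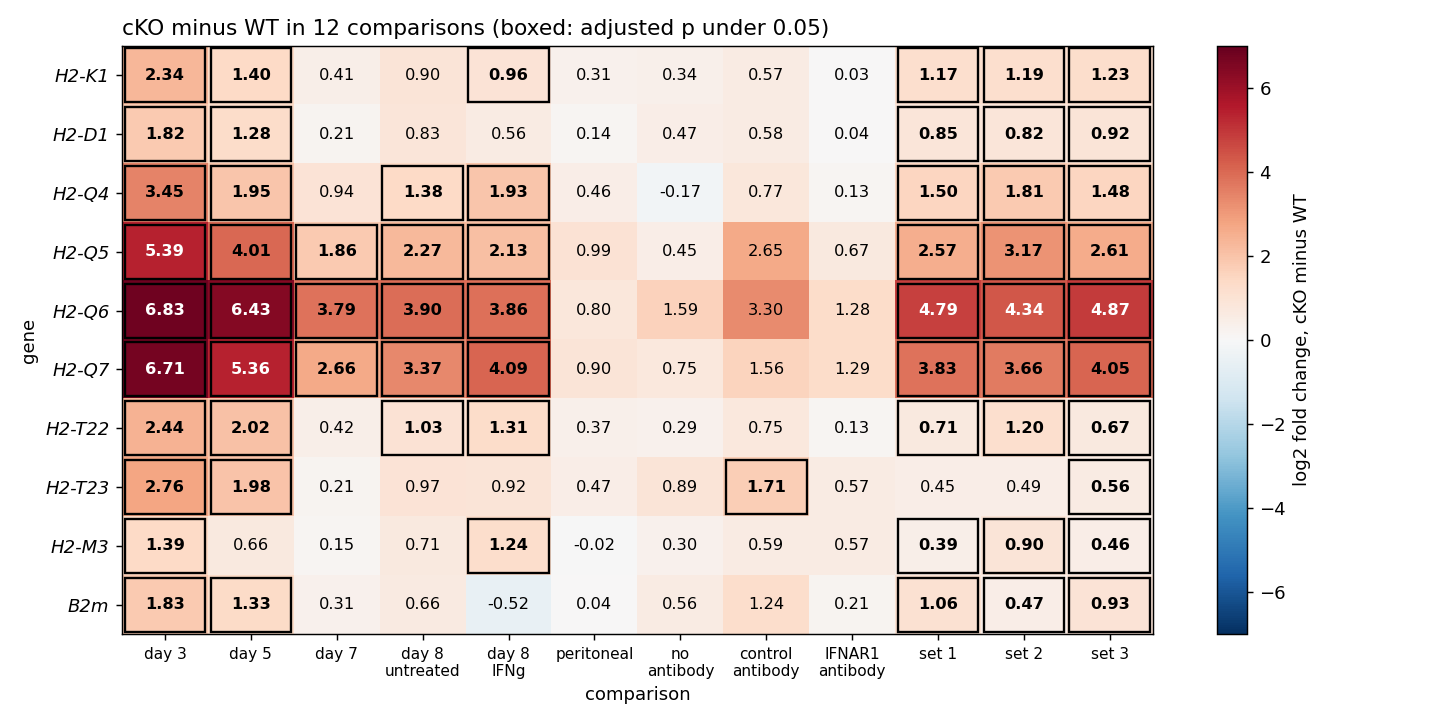
Log2 fold change of cKO over WT for the 10 class I genes (rows) in 12 comparisons (columns), as a colour scale with each value printed, where boxes mark adjusted p below 0.05. The Q region genes have the strongest colours, H2-Q6 up to 6.83 on day 3, and the peritoneal and antibody columns hold a single box, that of H2-T23 under the control antibody.

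The 3 further sets of BMDMs gave the genotype difference at the greatest depth. Of the 10 members 9 were higher in cKO cells of set 1 (18% of all 18083 genes were higher and 34.7% changed), 9 in set 2 (9.74% and 21%) and 10 in set 3 (16.9% and 34.9%). H2-Q6 had 5.07, 1.63 and 4.14 CPM in WT and 109, 93.9 and 86.6 in cKO cells of set 1, 27.6-fold apart (log2 4.79 ± 0.42). It had 2.33, 2.33 and 2.52 against 52.7, 32.9 and 59.5 CPM in set 2 and 4.90, 1.6 and 3.17 against 102, 105 and 82.2 CPM in set 3, or 20.2-fold and 29.2-fold. No WT library came within 10-fold of its cKO group mean.

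H2-Q7 differed by 3.83 ± 0.41, 3.66 ± 0.42 and 4.05 ± 0.42 on the log2 scale in sets 1, 2 and 3, H2-Q5 by 2.57, 3.17 and 2.61, and H2-Q4 by 1.5, 1.81 and 1.48. The classical genes differed less, H2-K1 by 1.17, 1.19 and 1.23 and H2-D1 by 0.85, 0.82 and 0.92. In set 2, where WT libraries were closest together, H2-K1 had 710.2, 641 and 650.3 CPM in WT and 1548, 1475 and 1529.8 in cKO cells. H2-T22 differed by 0.71, 1.20 and 0.67, H2-M3 by 0.39, 0.90 and 0.46 and B2m by 1.06, 0.47 and 0.93. H2-T23, among the strongest responders to IFNγ, differed little here. It had 173, 113 and 233 CPM in WT and 229, 224 and 254 in cKO cells of set 1 (0.45 ± 0.18, adjusted p = 0.0513). In set 2 its log2 difference was 0.49 ± 0.18 (adjusted p = 0.053) and in set 3 0.56 ± 0.18 (adjusted p = 0.0164). Neutrophil marker sums were 59.3 to 110 CPM in WT and 196 to 281 in cKO libraries of set 1, 101 to 176 and 151 to 169 in set 2, and 66.5 to 120 and 194 to 319 in set 3, with overlap in set 2. Markers of 3 other kinds of cell were higher in every cKO than in every WT library of each set. Those of dendritic cells summed to 3.13 to 6.28 CPM in WT and 12.99 to 17.1 in cKO libraries of set 1, 1.57 to 2.43 and 5.30 to 6.23 in set 2, and 4.13 to 4.90 and 11.7 to 20.4 in set 3. Those of B cells gave 2.53 to 6.80 and 7.24 to 8.72 CPM in set 1, 3.71 to 5.15 and 10.6 to 13.5 in set 2, and 2.65 to 5.02 and 5.45 to 10.4 in set 3. Those of mast cells and basophils gave 0.125 to 0.217 and 0.295 to 0.588 CPM in set 1, 0.126 to 0.597 and 1.63 to 1.99 in set 2, and 0 to 0.121 and 0.486 to 0.912 in set 3. Stromal markers separated in set 3 (10.6 to 15.3 and 22.9 to 32.7 CPM) and macrophage markers, lower in cKO cells, in set 2 (5267 to 5364 and 4458 to 4808 CPM), where erythroid ones were near 0 (0 to 0.0243 and 0.0249 to 0.111 CPM). The part of these cells in the class I differences was not tested.

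The double knockouts asked whether STING, MAVS or IRF7, which act in the induction of type I interferon, are needed. The labels do not tie a double knockout to a set, so each was compared with the mean of the 3 cKO sets. In the order of the samples, H3.3cKO:StingKO follows set 1, H3.3cKO:MavsKO follows set 2 and H3.3cKO:Irf7KO follows set 3. Libraries of set 3 and of H3.3cKO:Irf7KO listed 54146 genes, and those of sets 1 and 2, H3.3cKO:StingKO and H3.3cKO:MavsKO listed 55536. The mean may therefore join libraries that were processed apart, and calls against single sets are given below. Tmem173, the gene of STING, was at 5.52 ± 0.549 CPM in H3.3cKO:StingKO cells and had means of 72.0 to 88.1 in the cKO sets. Irf7 was at 106 ± 7.13 CPM in H3.3cKO:Irf7KO cells, with means of 310 to 388 in the sets. Mavs, at 37.5 ± 0.353 CPM in H3.3cKO:MavsKO cells, was close to its means of 38.9 to 49.9 in the sets, so its count does not check that label.

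In H3.3cKO:StingKO cells 8 of the 10 members were higher than in cKO cells (18.9% of all genes were higher and 36.1% changed). H2-T23 had 414, 408 and 479 CPM, where the 9 cKO libraries had 175 to 254 with a median of 224 (log2 1.02 ± 0.14, adjusted p = 6.48e-06). All 3 double knockout libraries lay above all 9. H2-Q7 had 92.3, 85.1 and 102 CPM (0.90 ± 0.27), H2-T22 142, 148 and 162 (0.78 ± 0.09), and H2-K1 2511, 2437 and 2732 (0.58 ± 0.11). H2-D1 (0.50), H2-Q4 (0.51), H2-Q5 (0.58) and H2-M3 (0.52) passed as well. H2-Q6 (0.60 ± 0.26, adjusted p = 0.0775) and B2m (0.17 ± 0.10, adjusted p = 0.217) did not. Against set 1 alone 5 members were higher. Stromal markers gave 162 to 199 CPM in these 3 libraries and 22.9 to 69.0 in the 9 cKO libraries, and Irf7 stood at 743 ± 87.1 CPM. Their part was not tested.

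H3.3cKO:MavsKO cells differed in no member (8.79% of all genes changed in edgeR, 2 members had an unadjusted p below 0.05, DESeq2 called 0, and log2 differences were −0.59 to −0.11). H2-K1 had 1537, 1618 and 1559 CPM, within the range of the cKO sets of 1475 to 2009, and H2-Q6 had 49.4, 57.9 and 64.5 within 32.9 to 109. Beside cKO set 1 alone, 2 members were lower. Beside set 2 alone the log2 differences were −0.12 (H2-M3) to 0.25 (H2-Q6), and beside set 3 alone −0.96 (H2-Q7) to −0.12 (B2m). Neutrophil marker sums of 57.0 to 118 CPM and dendritic cell sums of 4.08 to 4.34 lay below those of all 9 cKO libraries (151 to 319 and 5.30 to 20.4), and stromal sums of 80.2 to 288 and erythroid sums of 0.127 to 0.182 lay above them (22.9 to 69.0 and 0 to 0.111). Their part was not tested.

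In H3.3cKO:Irf7KO cells 4 of the 10 were lower (5.5% of all genes were lower and 9.85% changed). H2-Q7 had 6.42, 24.4 and 24.3 CPM, where the 9 cKO libraries had 22.2 to 80.1 with a median of 56.2 (log2 −1.44 ± 0.31, adjusted p = 0.00413). H2-Q6 had 11, 39.5 and 46.7 CPM (−1.24 ± 0.30, adjusted p = 0.00881), H2-K1 1039, 1311 and 1388 (−0.46 ± 0.12, adjusted p = 0.0134) and H2-Q4 56.5, 66.7 and 65.1 (−0.32 ± 0.09, adjusted p = 0.03). Replicate 1 was the lowest in all 4 genes, and for H2-Q6 and H2-Q7 the other 2 libraries lay inside the range of the cKO sets. Without it 1 member passed, H2-Q7 (−1.04, adjusted p = 0.031). The call also depended on the set used as reference, with 0 members against set 2 and 2 against set 3 (H2-Q6 −1.57 and H2-Q7 −1.81). The remaining genes had log2 differences of −0.50 to 0.04. H2-Q6 stayed above every WT library (at most 5.07 CPM) in all 9 double knockout libraries. In H3.3cKO:Irf7KO cells neutrophil markers summed to 84.4 to 115 CPM, B cell markers to 3.41 to 5.13 and macrophage markers to 3385 to 3700, below all 9 cKO libraries in each case (151 to 319, 5.45 to 13.5 and 3830 to 4931). H3f3b was at 121 ± 42.3 CPM in them, with means of 194 to 203 in the sets. The part of these in the lower class I levels was not tested.

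**Figure D4:**
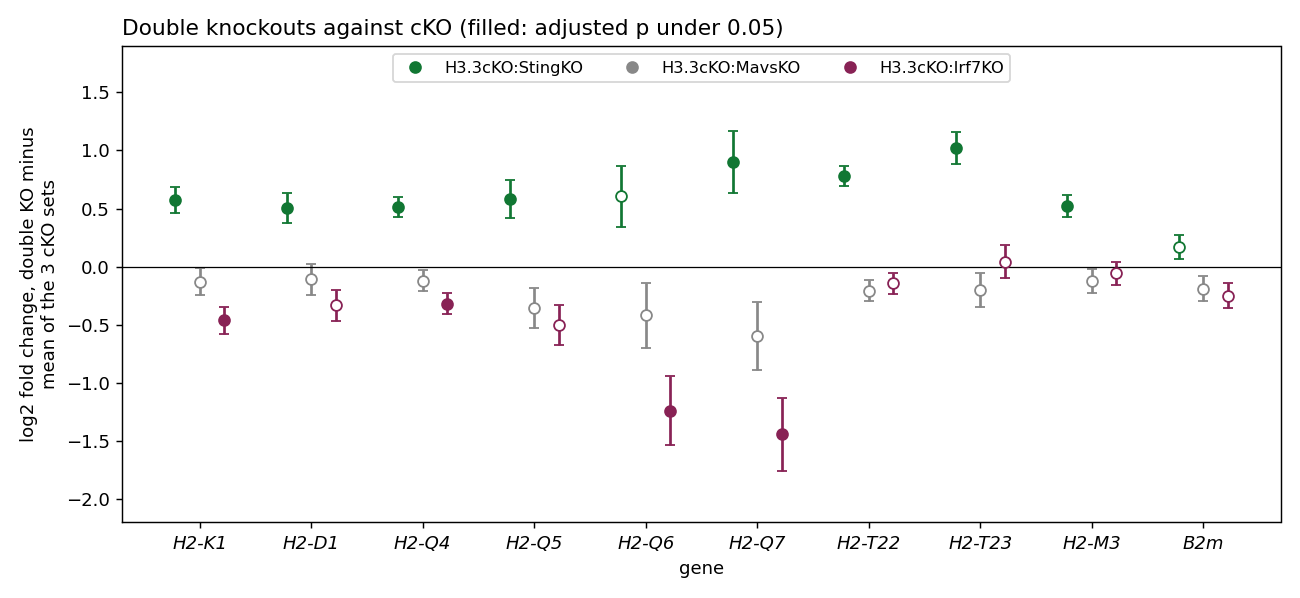
Log2 fold change ± SE of each double knockout (3 libraries) over the mean of the 3 cKO sets for the 10 class I genes, with filled symbols for adjusted p below 0.05. H3.3cKO:StingKO lies above 0 for all 10 genes with 8 filled, H3.3cKO:MavsKO has none filled, and H3.3cKO:Irf7KO has 4 filled below 0, the lowest at −1.44 for H2-Q7.

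The Q and T region genes were then set against the classical genes within each library, as counts per 1000 counts of H2-K1 and H2-D1 together. This measure needs no scaling between libraries. The 4 Q region genes together had 10.52 ± 1.63 counts per 1000 in WT and 73.4 ± 12.9 in cKO cells of day 3, 15.8 ± 3.57 and 36.6 ± 2.27 on day 7, and 14.1 ± 2.98 and 29.2 ± 1.85 in untreated day 8 BMDMs. With IFNγ they had 25.0 ± 4.73 and 80.2 ± 16, and 68.9 in cKO replicate 2, the library that is not low. In sets 1, 2 and 3 they went from 15.5, 12.4 and 17.2 in WT to 52.1, 39.1 and 56.3 in cKO cells, and in peritoneal macrophages from 8.88 ± 0.864 to 13.8 ± 3.55. Every cKO library lay above every WT library in 10 of the 12 comparisons, and the ranges overlapped without antibody and with the IFNAR1 antibody.

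The 2 T region genes were set against the classical genes in the same way. They had 56.8 ± 8.53 counts per 1000 in WT and 87.6 ± 2.37 in cKO cells of day 3, but 91.8 ± 26.1 and 92.2 ± 3.75 on day 7. In sets 1, 2 and 3 they were lower in cKO cells without overlap, at 67.1, 63.9 and 64.8 against 90.9, 78.1 and 87.9 in WT cells. They were higher in cKO cells without overlap on day 3, with IFNγ (220 ± 18.3, and 207 in replicate 2, against 185 ± 7.28 in WT), with the control antibody (74.2 against 41.2) and with the IFNAR1 antibody (67.3 against 52.0). In WT BMDMs IFNγ moved them from 70.0 ± 7.79 to 185 per 1000, more than any difference between genotypes did. So in the sets the classical genes gained on the T region genes in cKO cells while the Q region genes gained on both.

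On the log2 scale the Q and T region genes together gained 1.26 on the classical ones on day 3, 0.71 on day 5, 0.29 on day 7, 0.35 in untreated day 8 BMDMs, 0.51 with IFNγ (0.40 without the low library) and 0.16 to 0.20 in the sets. Without H2-Q6 and H2-Q7 the gain was 0.83 on day 3, and in the sets it turned to −0.26, −0.065 and −0.24. B2m had 429 ± 55.3 counts per 1000 of the classical genes in WT and 392 ± 83.4 in cKO cells of day 3, and these overlapped, as they did in 7 other comparisons. They were lower in cKO cells without overlap in set 2 and in both day 8 comparisons (264 ± 321 with IFNγ, where the low library had 36.9 and the other 491), and higher with the control antibody (436 ± 14.6 against 275 ± 5.66).

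The 9 heavy chain genes together took 0.0903 ± 0.0136% of all counts in WT and 0.387 ± 0.0411% in cKO cells of day 3. In WT BMDMs the share was 0.263% on day 7, 0.248% on day 8 and 0.690% with IFNγ, and in cKO BMDMs 0.330%, 0.452% and 0.836%, the last of which was 0.696% in the low library and 0.975% in the other. In peritoneal macrophages it was 1.24% and 1.5%, and in H3.3cKO:StingKO cells 0.735%. Classical genes made up most of it in every group.

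**Figure D5:**
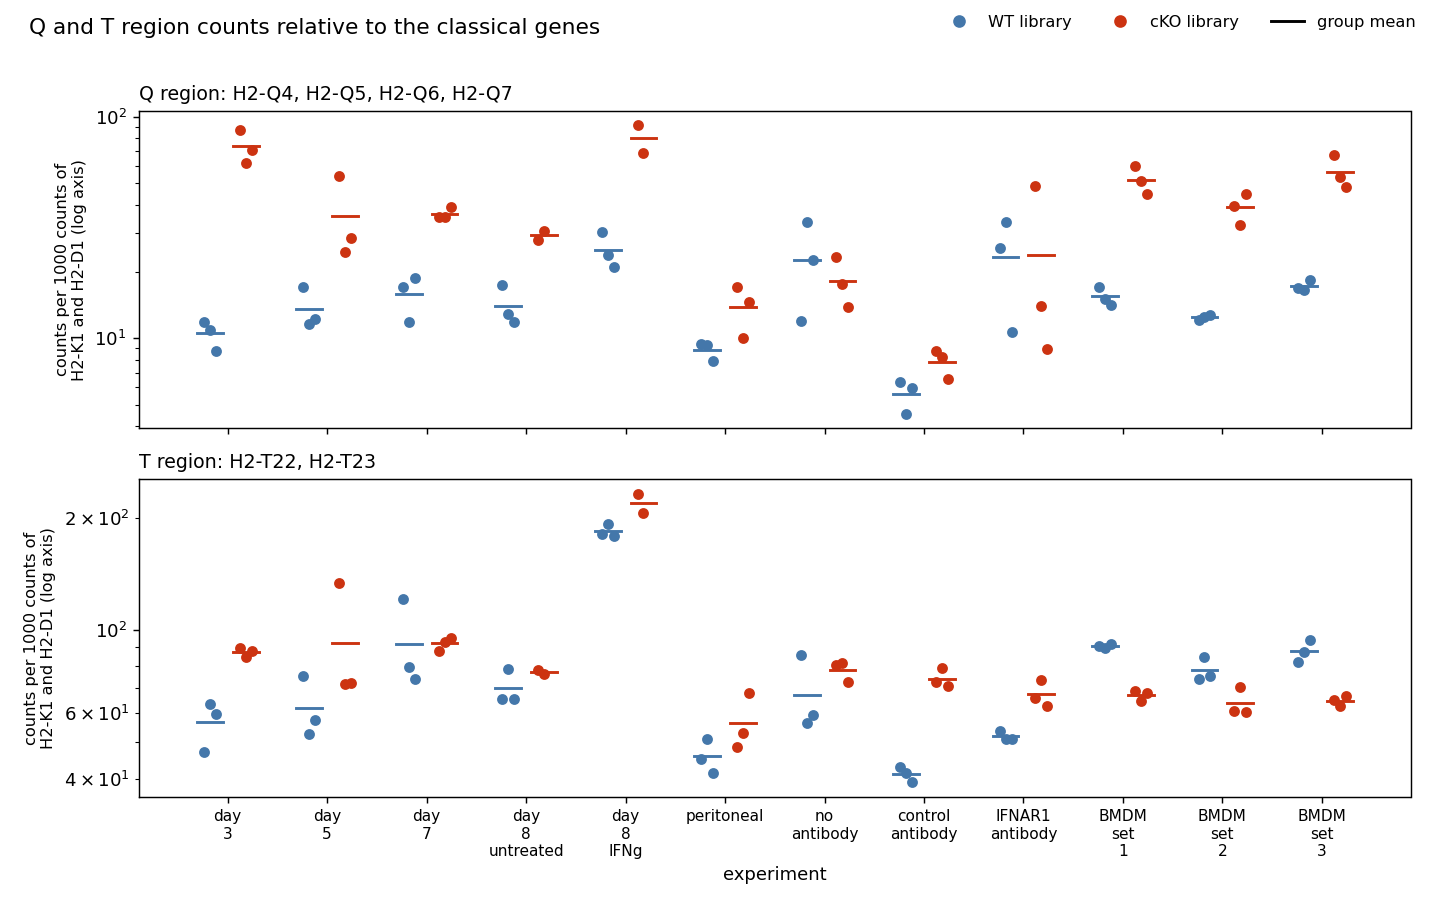
Counts of the 4 Q region genes (top) and the 2 T region genes (bottom) per 1000 counts of H2-K1 and H2-D1, with 1 point per WT and cKO library in 12 comparisons. Q region points of cKO libraries lie above those of WT libraries in 10 of 12 comparisons, and T region points lie below them in sets 1, 2 and 3.

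Of 22 genes of the class I pathway, all of which were tested, 12 were higher and 1 was lower in cKO cells of day 3, and their median on the log2 scale was 1.11. Of all genes, 5.19% were higher and 7.73% changed in either direction. Nlrc5, the activator of class I promoters, went from 32.7 ± 2.15 to 156 ± 16 CPM (2.25 ± 0.30). Tap1, a subunit of the pump that carries peptides into the endoplasmic reticulum, went from 31.3 ± 2.25 to 214 ± 12.6 CPM (2.77 ± 0.37). Tap2 (1.28), the other subunit of that pump, was higher too, as were Tapbp (1.33) and Tapbpl (1.12), which act in peptide loading. The immunoproteasome subunits Psmb8 (1.16), Psmb9 (1.83) and Psmb10 (1.11), and the factors Irf1 (1.61), Irf9 (1.75) and Stat2 (2.83) were among the others that were higher. Rfxap, part of the complex through which NLRC5 acts, was lower (−0.53). The chaperones Calr, Canx and Pdia3 did not pass. On day 5, 11 of the 22 were higher (2.2% of all genes were higher). On day 7 none passed in edgeR (1.4% of all genes changed, and 3 of the 22 had an unadjusted p below 0.05).

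In untreated day 8 BMDMs 1 of the 22 passed, Tap1 (1.20 ± 0.21), where 0.505% of all genes were higher. With IFNγ 5 were higher in cKO cells, Tap1, Tap2, Tapbp, Tapbpl and Psmb10, where 3.2% of all genes were higher. IFNγ raised 17 of the 22 in WT and 18 in cKO cells, Irf1 by 4.98 and 4.27, Nlrc5 by 3.23 and 2.52 and Tap1 by 3.22 and 3.04 on the log2 scale. Of all genes, 20% rose in WT and 17.2% in cKO cells. In the sets 8, 8 and 10 were higher and 3, 4 and 4 lower in cKO cells. Of all genes, 18%, 9.74% and 16.9% were higher and 34.7%, 21% and 34.9% changed in either direction. Nlrc5 differed by 1.01, 0.90 and 0.95 and Tap1 by 1.01, 1.43 and 1.03. In peritoneal macrophages none passed in edgeR (0.971% of all genes changed, and 4 of the 22 had an unadjusted p below 0.05). In the antibody experiment 5 were higher in cKO cells without antibody, 3 with the control and 1 with the IFNAR1 antibody (3.39%, 2.88% and 0.477% of all genes). With the IFNAR1 in place of the control antibody, Stat2 (−1.18 ± 0.21) and Irf9 (−0.99) were lower in cKO cells, and none of the 10 members passed (4.03% of all genes changed). Stat2 and Irf9 encode factors of type I interferon signalling. Of 15 other class I and class I-like genes 5 or 6 had enough counts to be tested in each experiment, and 1 was higher on day 3, H2-T24, from 4.97 to 66.7 CPM (3.74 ± 0.62, adjusted p = 0.00172). In sets 1 and 3, 1 of the 5 tested was higher and 3 were lower in cKO cells (34.7% and 34.9% of all genes changed). In set 2, 1 was higher and 0 were lower (21% changed). With the IFNAR1 in place of the control antibody, 1 of the 5 was higher and 1 lower in cKO cells (4.03% changed).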

How the data were processed

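The authors trimmed reads with Cutadapt, aligned them to mm10 with STAR (versions not given in the sources used here) and deposited raw counts of uniquely mapped reads per gene, of which the unstranded column was used. BMDM libraries were made after ribosomal RNA depletion with NEBNext Ultra II and peritoneal libraries with SMART-Seq v4. From the counts, each experiment was fitted separately in edgeR 4.0.16 (R 4.3.3), all its groups in one quasi-likelihood model, after filterByExpr (smallest count 10, smallest total 15) and TMM scaling, with Benjamini-Hochberg adjustment over all genes tested and a threshold of 0.05. The SE is the log2 fold change divided by the square root of F. RPKM used the merged exon length of GENCODE M21. Promoters and their positions came from RefSeq. The fits were tested on simulated data.

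The members and gene lists were chosen with earlier results of these data known. Named were all 10 members in each comparison (by value, by range or in the plots of fold changes), Nlrc5, Tap1, Psmb8, Psmb9 and Irf1 of the pathway list (1 further gene of it is counted but not reported here) and its other genes where called on day 3 or with interferon, other class I genes called on day 3, the targeted genes, and the 3 genes most alike H2-K1, H2-Q7 and B2m. Marker lists covered macrophages, neutrophils, B cells, T and NK cells, dendritic, stromal, mast and erythroid cells. Same-numbered libraries deviated together (every correlation above 0.1) between genotypes on days 3 and 7 and in peritoneal macrophages, and between WT libraries without and with IFNγ. Alternatives were DESeq2 1.42.0, no filter, a strand column, only the groups compared, the replicate number as a block, each set as reference, and each library left out. P-values measure the spread between these libraries. The depth limits genes with few counts, such as H2-Q6 in WT cells. No sample column was left over.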

Additional observations from a re-analysis of the deposited data

Results flagged for a closer look

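Data outside the comparisons showed class I levels above those of untreated WT cells. In the library of day 8 cKO cells whose title names IFNγ but whose library name does not (9674853 counts), 10 of the 10 members had more CPM before scaling than any untreated WT library, 1 more than any untreated cKO library and 3 more than any WT library with IFNγ. In the library whose library name alone names IFNγ (10498769 counts), 10 exceeded every untreated WT library, 10 every untreated cKO library and 9 every WT library with IFNγ. H2-T23 was at 197 and 929.5 CPM, and H2-Q6 at 20.3 and 137. No group was assigned from these values.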

How the results depend on the processing

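All counts here are of the 10 members passing. The share of all genes passing is not given for these alternatives, so the counts cannot be set against it. In the fit to the control antibody groups alone, the filter left out H2-Q5 and H2-Q7. On day 3 all 10 passed under every alternative. For the change of the genotype difference between day 3 and day 7 DESeq2 called 7, the fit without a filter 10, the fit to only the groups compared 7 and the fit with the replicate block 10, where edgeR called 0. Counting on 1 strand left 1 on day 7, and fitting only the groups compared 1 on day 7, 2 on day 5, 9 in untreated and 2 in IFNγ-treated day 8 cells, 8 with the control antibody, 4 for H3.3cKO:MavsKO and 7 for H3.3cKO:Irf7KO, fits with fewer libraries behind the spread. In untreated day 8 cells DESeq2 and the fit without a filter called 8 each and the replicate block 3. Without a filter 1 passed for the IFNγ effect between genotypes, 3 in peritoneal macrophages, 2 with the control antibody, 2 for IFNAR1 against control antibody in WT cells (DESeq2 2), 3 for H3.3cKO:MavsKO and 7 for H3.3cKO:Irf7KO. DESeq2 called 1 in peritoneal macrophages. Set 1 alone as reference gave 5 for H3.3cKO:StingKO and 2 for H3.3cKO:MavsKO, and for H3.3cKO:Irf7KO set 2 gave 0 and set 3 gave 2. The causes were not tested. The block changed no other count by more than 1.5 times, and the crossed block for IFNγ in cKO cells, added after seeing the data because same-numbered libraries correlated at −0.187, called 9.

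Leaving out 1 library at a time gave 3 to 10 on day 5 (3 without WT replicate 2 or 3 or cKO replicate 1), 0 to 3 on day 7, 0 to 8 for the change between day 3 and day 7 (8 without cKO day 5 replicate 1, 7 leaving out WT day 7 replicate 3, and 3 if any one of WT day 7 replicate 1, cKO day 5 replicate 2 or WT day 5 replicate 1 was dropped), 7 to 9 for WT day 7 over day 3, 0 to 10 in untreated day 8 cells, 5 to 10 with IFNγ, 0 to 3 for the IFNγ effect between genotypes (3 without cKO IFNγ replicate 2), 0 to 1 without antibody (1 without cKO IFNAR1 replicate 1), 0 to 2 with the control antibody, 0 to 4 for IFNAR1 against control antibody in WT cells (4 without WT IFNAR1 replicate 3 or cKO IFNAR1 replicate 1, 1 without cKO IFNAR1 replicate 3), 7 to 9 for H3.3cKO:StingKO and 1 to 6 for H3.3cKO:Irf7KO (1 without its replicate 1). In the sets 8 to 10 passed. Without H2-Q6 and H2-Q7 the log2 gain of Q and T region on classical genes was 0.83 on day 3, 0.23 in untreated and 0.37 in treated day 8 cells, and −0.26, −0.065 and −0.24 in sets 1, 2 and 3.

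Of single log2 fold changes, 3 turned sign with another reference: B2m in H3.3cKO:StingKO (−0.041, set 1), H2-T23 (−0.10, set 1) and H2-T22 (0.041, set 2) in H3.3cKO:Irf7KO. With 1 library left out H2-D1 (−0.041 to 0.55) and H2-T23 (−0.10 to 0.42) on day 7, B2m in cKO over WT cells with IFNγ (−3.02 to 0.36) and in cKO cells with IFNγ over without (−1.97 to 1.41), H2-M3 (−0.12 to 0.13) and B2m (−0.13 to 0.25) in peritoneal macrophages, and H2-T23 (−0.061 to 0.12) and H2-M3 (−0.11 to 0.0046) in H3.3cKO:Irf7KO did so. None of these had passed. Depth limits H2-Q5, H2-Q6 and H2-Q7 in WT cells.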

Other observations

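Over the 18 libraries of the time course, the genes whose log2 CPM ran most like that of H2-K1 were Slfn5 (Pearson r = 0.982), Rnf31 (0.975) and Rnf114 (0.972). For H2-Q7 they were Gm13822 (0.962), Tap2 (0.959) and Slfn1 (0.954), and for B2m Lgals3bp (0.983), Epsti1 (0.982) and Slfn5 (0.979). Among the members, H2-Q6 and H2-Q7 were most alike (0.984), followed by H2-K1 and H2-T23 (0.981), and H2-Q6 and H2-M3 were least alike (0.704). These values describe 18 libraries that share genotype and day, and carry no test.

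WT libraries with the same number in sets 1 and 3 deviated from their group means together, with correlations across genes of 0.386, 0.316 and 0.143, where those of sets 1 and 2 ranged from −0.0601 to −0.0093. For cKO libraries of sets 1 and 3 the correlations were 0.242, −0.0068 and 0.142, so that the second pair did not deviate together. The labels do not say whether sets 1 and 3 share animals or days.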
